A study of Solanum lycopersicum with 15 samples.

Results

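The genes described here are those whose transcript level set the mutant root libraries numbered 4 apart from the libraries numbered 2 and 3 in each of 4 mutant lines of tomato. They were chosen by 2 rules applied to the 12 mutant libraries. A gene had to be called between the 4 libraries numbered 4 and the 8 libraries numbered 2 or 3 with line as a term, and its replicate 4 library had to lie beyond both other libraries of the line, on the same side, in all 4 lines. Of 16153 genes tested among the 34688 of the table, 573 met both rules, 132 with higher and 441 with lower levels in replicate 4. The values that chose them are given below as a description. Calls of replicate 4 against replicates 2 and 3 are counted as part of the choice and are not read as a test result. The comparisons with wild type that are tested below include the replicate 4 libraries.

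All libraries came from hairy roots of *Solanum lycopersicum* cultivar M82, that is, roots that grew after infection with *Rhizobium rhizogenes*, kept on Murashige and Skoog medium with vitamins and 3% sucrose. The mutants carried CRISPR edits in *SlEXO1* (lines *slexo1-hr6* and *slexo1-hr7*) or *SlSCZ* (lines *slscz-hr5* and *slscz-hr12*), each line being a single independent hairy root line, and the wild type was M82 transformed without a vector, so that the edit and the carriage of a vector cannot be told apart. Each of the 5 groups had 3 libraries, each library held RNA from the last 3 cm of 6 to 7 pooled root tips, and the labels name no treatment that differed between groups. The replicate numbers are those of the sample descriptions and of the count table. The titles of *slexo1-hr7* count the same libraries from 1, so that its replicate 4 is called rep 3 there, and no label says what a shared number stands for.

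*SlEXO1* encodes a C2H2 zinc finger transcription factor and *SlSCZ* the tomato homologue of SCHIZORIZA, a heat-shock type transcription factor that acts in the specification of root cortex cells in *Arabidopsis*. The exodermis is the outermost cortex layer of the tomato root and, like the endodermis around the vasculature, lays down lignin and suberin that restrict the passage of water and solutes through the cell wall. The libraries were read from the 3′ ends of transcripts (QuantSeq), so that a count follows the number of transcript molecules and not transcript length.

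The mutant libraries held between 2726538 and 6020912 estimated counts. Replicate 4 libraries held 4800477 to 5955713 counts and the others 2726538 to 6020912, and replicate 4 held the most in 2 of the 4 lines. The share of counts taken by the 10 most abundant genes of a library had a mean of 8.998% in replicate 4 and 7.959% in the others, with replicate 4 above both other libraries in all 4 lines. This share comes from the same counts and contrast as the choice, so it is given as a description and no test of it is reported. A single chosen gene, Solyc06g074590, took 1.38% to 1.68% of all counts in replicate 4 and 0.649% to 1.407% in the other mutant libraries. *SlEXO1* (Solyc09g011120) was measured at 0.388 to 6.21 CPM (counts scaled to a library of 1000000) in the mutant libraries and *SlSCZ* (Solyc04g078770) at 3.36 to 8.50 CPM. Both are 3′ end counts and do not read the edit itself. The endodermal genes *SlMYB36* (Solyc07g006750, a MYB transcription factor needed for the Casparian strip) and *SlCASP1* (Solyc06g074230, a membrane protein of the strip) were detected in all 12, at 5.43 to 15.9 and 11.8 to 38.3 CPM.

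In the fit with line as a term (limma voom, a call needing a change of 1.3-fold or more and a p no larger than 0.05 after Benjamini-Hochberg adjustment), 765 genes were called between replicate 4 and replicates 2 and 3, which is 4.74% of those tested, 155 higher and 610 lower. A position beyond both other libraries on 1 side in all 4 lines was found for 1994 genes, 12.3% of those tested, 978 of them higher and 1016 lower. Both rules together kept 573 genes (3.55%), of which 77% were lower in replicate 4. A further 394 genes passed the adjusted p but changed by less than 1.3-fold. At the edge of the fold threshold stood Solyc07g054410, a chosen gene at 22.7 against 17.6 CPM and 1.302-fold, and just outside it Solyc11g007850 at 29.6 against 22.9 CPM. Taken against a single number, replicate 4 gave 793 calls against replicate 2 and 170 against replicate 3. These share the replicate 4 libraries, and which of the sets differed more was not tested.

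The count of chosen genes rested in part on the *slscz* libraries. It was 252 without replicate 4 of *slscz-hr5* and 218 without replicate 4 of *slscz-hr12*, with the rule then applied to the 3 remaining lines, and 195 and 281 when the whole line was left out. With all libraries thinned to the depth of the smallest, 328 genes met the rules, 243 of them among the 573.

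Together the 441 lower genes took 2.10%, 1.88%, 2.34% and 2.44% of all counts in replicate 4 of *slscz-hr5*, *slscz-hr12*, *slexo1-hr6* and *slexo1-hr7*, and between 3.02% and 3.59% in the 8 libraries numbered 2 or 3. The 132 higher genes took 2.54%, 2.95%, 3.06% and 2.77% in replicate 4 of the same lines, and between 1.34% and 2.535% in the others. Neither pair of ranges overlapped, although for the higher genes replicate 4 of *slscz-hr5* and replicate 3 of *slexo1-hr6* were nearly equal. Most of the share of the higher genes came from 2 of them, Solyc06g074590 with 1.38% to 1.68% of all counts in replicate 4 and Solyc11g045440 with 0.407% to 0.568%. The other 130 took 0.752% to 0.815% in replicate 4 and 0.505% to 0.673% in the 8 others, again without overlap. The direction in each line follows from the choice of genes. In pooled root tips, fewer cells of a type and less RNA per cell cannot be told apart. The 3 wild-type libraries took 2.55%, 2.83% and 2.63% for the lower genes, between both mutant sets, and 1.59%, 1.59% and 2.02% for the higher genes, within the range of replicates 2 and 3.

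**Figure D1:**
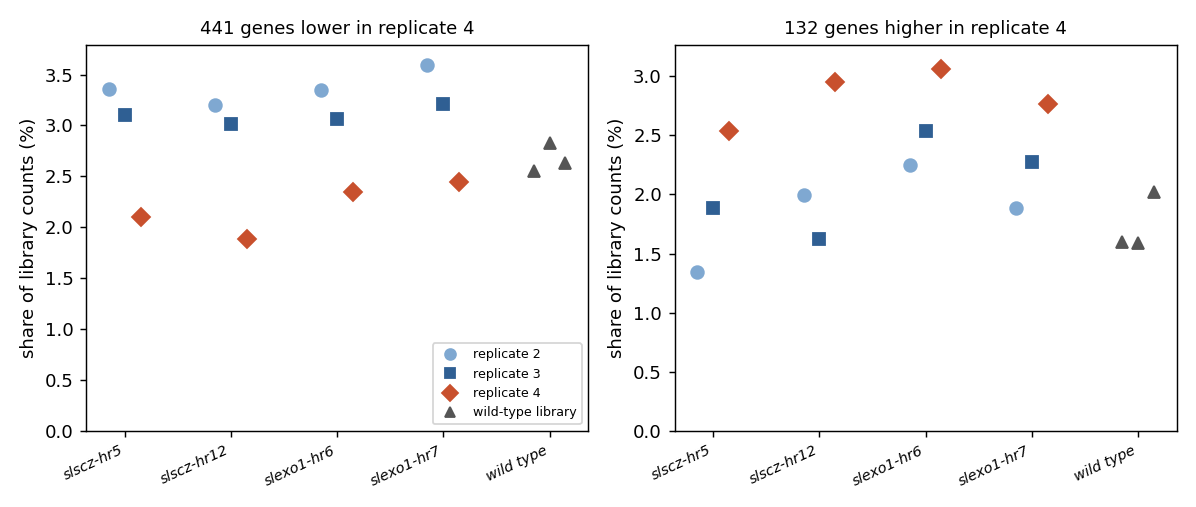
Share of all counts of a library (percent, vertical axes from 0) taken by the 441 lower genes (left) and the 132 higher genes (right), with 1 point per library, grouped by line on the horizontal axes. Replicate 4 lies at 1.88% to 2.44% on the left and 2.54% to 3.06% on the right, and most of the share on the right belongs to 2 genes, Solyc06g074590 and Solyc11g045440.

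Across the chosen genes the log2 difference of replicate 4 from replicates 2 and 3 ran from -3.95 to -0.38 in the lower group (median -0.61) and from 0.38 to 1.90 in the higher group (median 0.46), against a median of -0.01 over all tested genes. Changes of at least 2-fold were found for 74 lower and 7 higher genes. The median of the mean log2 CPM was 4.57 in the lower group, 4.56 in the higher group and 3.92 over all tested genes. All 4 replicate 4 libraries lay beyond all 8 others, regardless of line, for 200 of the lower and 45 of the higher genes, where 2.81% of all tested genes did so. That measure comes from the contrast that chose the genes and is given for description only.

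The largest fall among the chosen genes was that of Solyc05g055440, whose values were not whole (more than 1e-06 from a whole number) in 10 of the 12 mutant libraries, as happens where reads are shared with another gene. Its counts in replicates 2, 3 and 4 were 23, 18 and 0 in *slscz-hr5*, 45, 14 and 0 in *slscz-hr12*, 51, 25 and 11 in *slexo1-hr6*, and 49, 90 and 4 in *slexo1-hr7*. The wild-type libraries held 0, 1 and 0 counts, so the replicate 4 libraries of *slscz* and all wild-type libraries were at or near 0 while replicates 2 and 3 of every mutant line were not. A count of 0 still allows up to 3 counts in a library. The fitted difference was -3.95 on the log2 scale (SE 0.72), and neither mutant was called against wild type for this gene (limma voom, log2 difference 4.96, SE 2.64 and adjusted p = 0.256 in *slexo1*, 2.99, SE 2.76 and adjusted p = 0.511 in *slscz*). The replicate spread for which the gene was chosen enters these errors, and fitted values against so few wild-type counts depend on the prior count and bound nothing.

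Solyc01g008090 had the next largest fall of the named genes. It was measured in replicates 2, 3 and 4 at 92.7, 63.6 and 16.4 CPM in *slscz-hr5*, 66.4, 55.9 and 10.7 CPM in *slscz-hr12*, 52.9, 51 and 30 CPM in *slexo1-hr6*, and 60.4, 49 and 22.5 CPM in *slexo1-hr7*. Replicate 4 was below every library numbered 2 or 3, and the fall was steeper in both *slscz* lines. The 3 wild-type libraries, at 27.1, 41.1 and 35.4 CPM, lay near the replicate 4 libraries of *slexo1*. The fitted difference was -1.61 (SE 0.20), and its values were not whole in 10 of the 12 libraries.

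Solyc12g096620 was one of the most abundant of the steeply lower genes. It stood at 308, 235 and 77.2 CPM in replicates 2, 3 and 4 of *slscz-hr5*, 205, 116 and 43.2 CPM in *slscz-hr12*, 293, 261 and 183 CPM in *slexo1-hr6*, and 327, 241 and 99.4 CPM in *slexo1-hr7*, with 121, 177 and 165 CPM in the wild type. Here the sets overlapped across lines, because replicate 3 of *slscz-hr12* was below replicate 4 of *slexo1-hr6*. The fitted difference was -1.37 (SE 0.17). In Solyc12g010400 the replicate 4 libraries of *slscz-hr5*, *slscz-hr12*, *slexo1-hr6* and *slexo1-hr7* were at 31.0, 14.3, 55.4 and 53.8 CPM and the 8 others at 71.1 to 128 CPM (median 106), without overlap, and the fitted difference was -1.42 (SE 0.22).

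**Figure D2:**
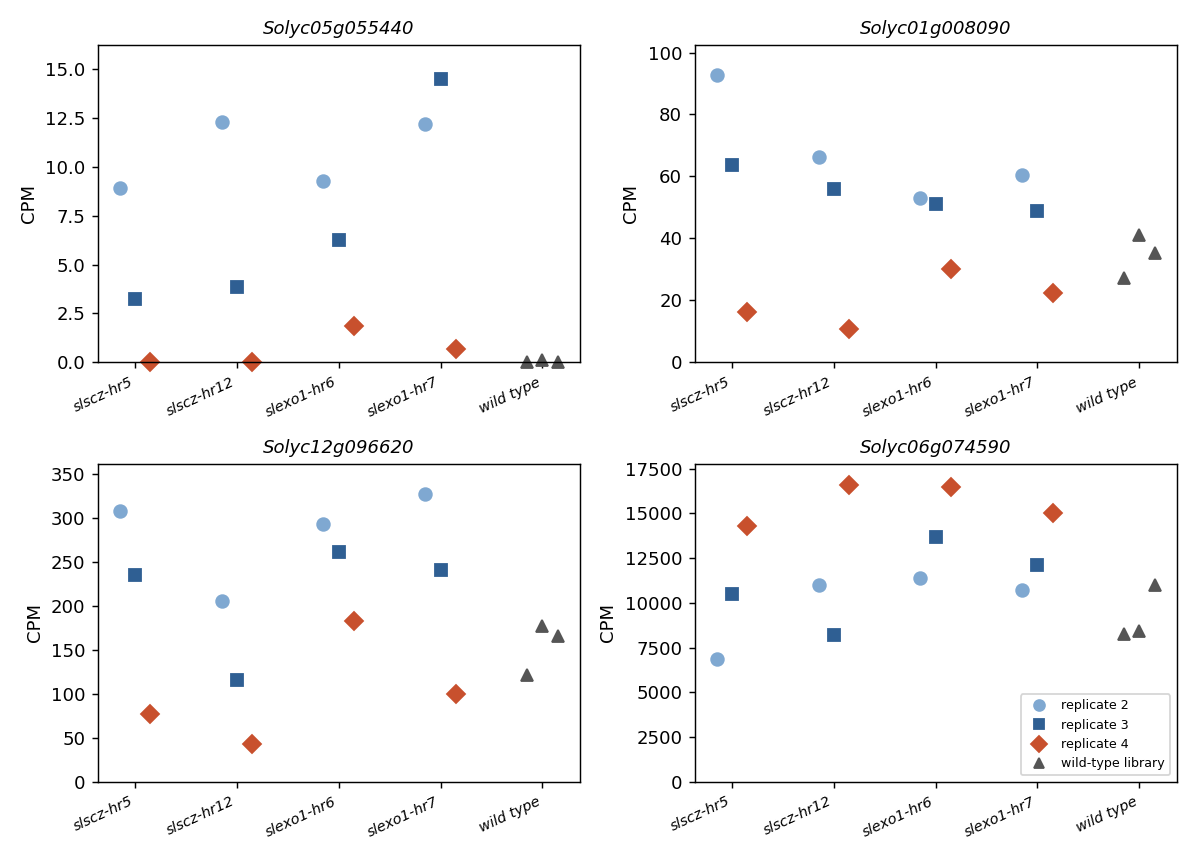
Level in CPM (counts scaled to a library of 1000000, vertical axes from 0) of 3 lower genes and the most abundant higher gene, 1 point per library, grouped by line on the horizontal axes. Solyc05g055440 is at or near 0 in wild type and in replicate 4 of both *slscz* lines, and Solyc06g074590 is at 14300 CPM or more in the replicate 4 libraries and at 13700 CPM or less in all others.

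The other 8 of the 12 lower genes with the largest falls at 10 or more counts in each library numbered 2 or 3 changed by -1.55 to -1.35 on the log2 scale. In Solyc05g005690 the replicate 4 libraries were at 3.16 to 11.0 CPM and the others at 14.3 to 33.0 CPM, with a fitted difference of -1.38 (SE 0.28). In Solyc09g015160 they were at 3.79 to 11.5 against 14.5 to 23.7 CPM, and in Solyc02g094160 at 3.37 to 8.77 against 10.9 to 26.3 CPM. The 2 sets did not overlap in any of these 3 genes. Solyc04g078380 also had replicate 3 below replicate 2, by a fitted difference of -1.02 that did not pass the adjusted threshold, with 12 and 4.66 CPM in *slscz-hr5*, 9.05 and 5.21 in *slscz-hr12*, 7.28 and 3.50 in *slexo1-hr6* and 10.7 and 5.64 in *slexo1-hr7*, and replicate 4 at 1.05 to 3.64 CPM. Its sets overlapped across lines.

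With the tested genes sorted by identifier, 56 of the 573 genes formed 26 runs of genes next to each other in that order with the same direction, 23 of them pairs, and 21 of the runs were lower in replicate 4. One pair, Solyc00g500183 and Solyc00g500184, has no chromosome position. Distances along the chromosomes were not used. How many runs the same number of genes would form when picked without regard to order was not worked out. The runs are therefore a description and are not read as clustering. The longest run held the 4 genes from Solyc08g080640 to Solyc08g080670 on chromosome 8, with log2 differences of -0.49, -1.05, -1.55 and -1.55 (SE 0.11, 0.12, 0.19 and 0.24). Solyc08g080660 stood at 5.43, 11.6 and 5.04 CPM in replicates 2, 3 and 4 of *slscz-hr5*, 14.5, 6.03 and 3.79 CPM in *slscz-hr12*, 47.8, 39.8 and 11.7 CPM in *slexo1-hr6*, and 41.3, 42.5 and 15.2 CPM in *slexo1-hr7*, so its 2 sets overlapped because the *slscz* lines were low throughout. In Solyc08g080670 the 2 sets did not overlap, at 2.11 to 8.12 CPM in replicate 4 and 11.2 to 22.9 CPM in the others. The tested genes on either side in that order, Solyc08g080630 and Solyc08g080680, differed by -0.02 (SE 0.08) and -0.22 (SE 0.09) and were not called. All values of the 4 genes in the mutant libraries were whole.

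The 132 higher genes changed less, and the most abundant of them was Solyc06g074590. It took 6870, 10500 and 14300 CPM in replicates 2, 3 and 4 of *slscz-hr5*, 11000, 8200 and 16600 CPM in *slscz-hr12*, 11400, 13700 and 16500 CPM in *slexo1-hr6*, and 10700, 12100 and 15000 CPM in *slexo1-hr7*. All 4 replicate 4 libraries were above all 8 others, and the wild-type libraries, at 8240, 8450 and 11000 CPM, lay within the range of those 8. The fitted difference was 0.58 (SE 0.10). Solyc11g045440, second in abundance, was at 4230, 5050, 5570 and 4790 CPM in replicate 4 of *slscz-hr5*, *slscz-hr12*, *slexo1-hr6* and *slexo1-hr7* and at 1960 to 4420 CPM (median 3465) in the others, with overlap across lines and a fitted difference of 0.57 (SE 0.11).

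The steepest rises were in genes of low level. Genes were filtered on all 12 libraries, so a gene of low level could pass through the libraries where it was high alone. Without replicate 4, 126 of the 132 higher and 437 of the 441 lower genes passed the filter in the 8 other mutant libraries. Solyc10g008660 was measured at 0, 1.07 and 7.84 CPM in replicates 2, 3 and 4 of *slscz-hr5*, 3.57, 1.92 and 4.64 CPM in *slscz-hr12*, 3.27, 1.5 and 7.01 CPM in *slexo1-hr6*, and 1.99, 0.967 and 8.28 CPM in *slexo1-hr7*. The sets did not overlap in the mutants, the wild-type libraries were at 3.69, 4.18 and 11.1 CPM, and the fitted difference was 1.90 (SE 0.36). Its values were not whole in 11 of the 12 mutant libraries. In Solyc10g005140 replicate 4 was at 3.31 to 4.21 CPM and the others at 0.179 to 2.5 CPM, for a difference of 1.32 (SE 0.34). Solyc11g021160 had the narrowest replicate 4 values of the 12 named rises, 7.59 to 7.79 CPM against 3.48 to 5.76 CPM, with wild type at 4.62, 4.30 and 2.31 CPM and a difference of 0.76 (SE 0.18). Of those 12 genes, 3 had overlapping sets across lines, namely Solyc06g082560, Solyc03g093620 and Solyc11g068370. Each of the 12 named rises lost its call in some of the alternative fits, from 3 of 26 for Solyc10g008660 to 20 of 26 for Solyc11g068370. Among the named falls Solyc04g078380 lost it in 13 of 26, Solyc05g055440 in 0 of 26 and Solyc01g008090 in 0 of 27. These fits repeat the contrast that chose the genes, mostly on the same libraries. A call that was kept is therefore a description and no independent support.

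Identifiers that begin with Solyc00 belong to genes not placed on a chromosome. These made up 17 of the 132 higher genes (12.9%) and 1 of the 441 lower genes (0.23%), against 204 of 16153 tested genes (1.26%). The 17 held 11 distinct profiles of counts over the 12 libraries, since 10 of them had exactly the counts of another gene. Values that were not whole in 6 or more of the 12 mutant libraries, as estimated counts are when reads are shared between genes, were found for 14 of the 17 (82.4%), against 162 of all 204 unplaced genes tested (79.4%), and for 27.3% of the higher genes, 10% of the lower genes and 8.3% of all tested genes. Such genes cannot be told apart from their copies by these counts, and the part of shared reads in the higher levels was not tested. Solyc00g500351, the most abundant of the 17, was at 561, 541, 532 and 514 CPM in replicate 4 of *slscz-hr5*, *slscz-hr12*, *slexo1-hr6* and *slexo1-hr7*, at 304 to 471 CPM in the 8 others and at 433, 414 and 464 CPM in the wild type, with a difference of 0.48 (SE 0.08). The share of values that were not whole was 4.69% to 5.38% in replicate 4 and 4.01% to 5.30% in the other mutant libraries, and replicate 4 was highest in all 4 lines.

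The median difference of the 441 lower genes was -0.67 in *slscz-hr5*, -0.80 in *slscz-hr12*, -0.46 in *slexo1-hr6* and -0.52 in *slexo1-hr7* (log2 CPM). The medians of the 132 higher genes were 0.49, 0.52, 0.45 and 0.50 in the same lines, and those of all tested genes lay between 0.002 and 0.009. *slscz-hr12* had the largest fall of the 4 lines for 234 of the 441 lower genes, and a fall of at least 2-fold for 145, where *slexo1-hr6* had 30. The medians of the higher genes lay closer together than those of the lower genes.

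**Figure D3:**
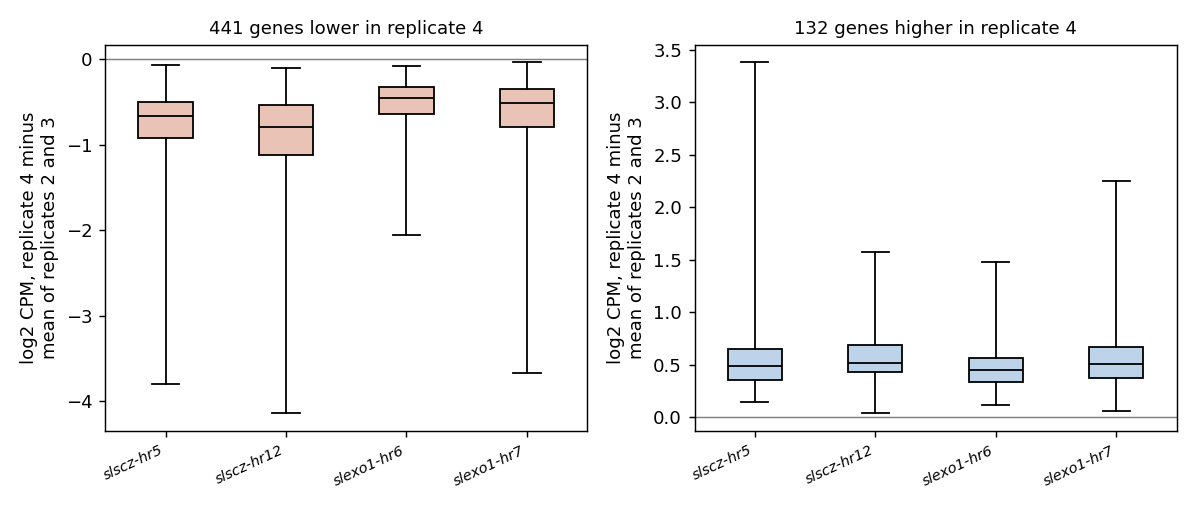
Log2 CPM of replicate 4 minus the mean of replicates 2 and 3 in each line (vertical axes), for the 441 lower genes (left) and the 132 higher genes (right). Boxes show the median and the quartiles and whiskers the lowest and highest gene. The lower genes have medians of -0.67 and -0.80 in the *slscz* lines and -0.46 and -0.52 in the *slexo1* lines.

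Whether the replicate 4 difference itself differed between the genotypes was tested over all genes by the interaction of replicate set and genotype (limma voom). It was called for 72 genes, 0.446% of those tested, with 56 more negative in *slscz*. Of the 573 chosen genes 6 were called, all of them lower genes with a larger fall in *slscz*. Among the 441 lower genes 345 had the larger fall in *slscz*. The share of all tested genes with a negative term was not worked out, so this count is not read as a result. The choice asked for 1 direction in all 4 lines and used these same differences, so counts and terms among the chosen genes are a description. Each genotype held 2 lines with 1 replicate 4 library each, so the terms rest on few libraries. The 6 were Solyc10g006920, Solyc01g008090, Solyc05g012070, Solyc01g096230, Solyc03g033500 and Solyc06g008260, with interaction terms of -1.67, -1.29, -1.26, -1.20, -1.12 and -0.52. In Solyc10g006920 the levels in replicates 2, 3 and 4 were 42.7, 32.4 and 11.6 CPM in *slscz-hr5*, 61.7, 43.3 and 9.1 CPM in *slscz-hr12*, 29.1, 29.5 and 25.5 CPM in *slexo1-hr6*, and 29.1, 23.7 and 16.7 CPM in *slexo1-hr7*.

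Without replicate 4 of *slscz-hr12* the interaction count was 0 by limma voom, while 5.91% of the genes had an unadjusted p under 0.05, and this fit was not repeated with another tool. It was 41 without replicate 4 of *slscz-hr5*, 43, 111 and 39 without replicates 2, 3 and 4 of *slexo1-hr6*, and 32 and 24 without replicates 3 and 4 of *slexo1-hr7*. On all 12 libraries edgeR called 76 genes and DESeq2 91.

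The genes were also chosen in 3 lines and their difference read in the fourth. The contrast itself was known from all 12 libraries, so these values describe how the difference recurred and are not independent support for it. Of 195 genes chosen without *slscz-hr5*, 186 (95.4%) changed in the same direction in that line, and of 281 chosen without *slscz-hr12*, 266 (94.7%) did. The counts were 521 of 602 (86.5%) for *slexo1-hr6* and 434 of 502 (86.5%) for *slexo1-hr7*. Over all tested genes the direction fitted in 3 lines recurred in the fourth for 65.8%, 64.8%, 62.0% and 62.7% of genes in the same order.

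In the line held out, replicate 4 lay beyond both other libraries on the side fitted in the other lines for 93.3%, 90.4%, 67.9% and 77.5% of the chosen genes of *slscz-hr5*, *slscz-hr12*, *slexo1-hr6* and *slexo1-hr7*, and for 44.9% to 50.3% of all tested genes. The median difference of the lower genes was -0.70 and -0.82 in the held-out *slscz* lines, where it had been -0.69 and -0.64 in the lines of the choice. In the held-out *slexo1* lines it was -0.30 and -0.35, against -0.67 and -0.66 in the lines of the choice. The medians of the higher genes were smaller in every held-out line than in the lines of the choice, 0.36 against 0.48 for *slscz-hr5*, 0.41 against 0.47 for *slscz-hr12*, 0.18 against 0.49 for *slexo1-hr6* and 0.27 against 0.47 for *slexo1-hr7*. No test per gene was run within a line.

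**Figure D4:**
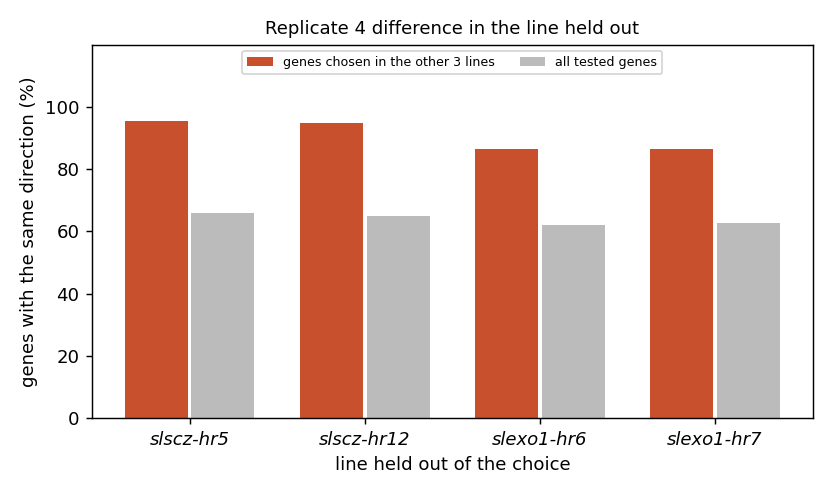
Percentage of genes (vertical axis from 0) whose replicate 4 difference in the line held out of the choice (horizontal axis) had the direction found in the other 3 lines, for the chosen genes and for all tested genes. The chosen genes stand at 95.4%, 94.7%, 86.5% and 86.5% and all tested genes at 62.0% to 65.8%.

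Replicate 3 was compared with replicate 2 in a fit with line as a term, a contrast orthogonal to the one that chose the genes. No gene was called (0% of 16153) by limma voom, and edgeR and DESeq2 also called 0. An unadjusted p under 0.05 was found for 735 genes (4.55%), among them 78 of the 441 lower genes (17.7%) and 11 of the 132 higher genes (8.33%). The residual spread of a gene enters this contrast as well as the choice. Replicate 3 was below replicate 2 for 352 of the 441 lower genes (79.8%), where 49.7% of all tested genes did so, with a median difference of -0.14 on the log2 scale. Of the 132 higher genes 88 (66.7%) had replicate 3 above replicate 2, against 50.3% of all tested genes. Single genes passed no threshold here, and the genes are not independent of each other.

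Wild-type levels were set beside both mutant sets on a scale normalized over all 15 libraries. For 101 of the 132 higher genes and 8719 of 16153 tested genes the wild-type mean was nearer to replicates 2 and 3 than to replicate 4. It was nearer to replicate 4 for 23.5% of the higher genes, 37.9% of the lower genes and 46% of all tested genes. The choice on replicate 4 values raises the nearness to the other set by construction. The median higher gene had a wild-type level 0.005 above replicates 2 and 3 and 0.49 below replicate 4 (log2 CPM). For the lower genes the wild-type mean lay between both sets in 320 of 441 cases, with medians of 0.25 below replicates 2 and 3 and 0.39 above replicate 4. The range over the 3 wild-type libraries had a median of 0.42 for the higher and 0.35 for the lower genes. Over all tested genes the wild-type mean was between the sets for 4315 of 16153, but genes chosen for a gap between the sets hold more values in it by construction. The wild-type columns carry numbers from 2 to 4 in the table and from 1 to 3 in the labels, so that no wild-type library was matched to a mutant replicate number.

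Each mutant was compared with wild type, the comparison the study was built on. Line was not a term of these fits, so libraries of the same mutant line counted as separate replicates. In *slexo1* against wild type, with all libraries, 3.89% of the tested genes were called higher and 4.95% lower (limma voom, 3 genotype groups). Of the 132 higher genes 19 (14.4%) were called higher in *slexo1* and 6 lower, and of the 439 lower genes tested 11 were called higher and 10 lower. In *slscz* against wild type, where 6.84% of all genes were called higher and 8.37% lower, 19 of the 132 higher genes (14.4%) were called higher and 4 lower, and 12 of 439 lower genes were called higher and 37 (8.43%) lower. The 2 comparisons share the 3 wild-type libraries. The mutant groups hold the replicate 4 libraries, so the choice of higher genes itself raises their share called higher.

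With the replicate 4 libraries of the mutants left out, 5.53% of all tested genes were called higher and 7.04% lower in *slexo1*, and 8.44% higher and 10.6% lower in *slscz*. The lower genes, whose mutant mean rises by construction when replicate 4 is left out, were then called higher for 74 of 437 in *slexo1* and 94 of 437 in *slscz*. The mutant mean of the higher genes then falls by construction, and 125 of the 132 still passed the filter. Of these 125, 12 were called higher and 19 lower in *slexo1*, and 11 higher and 17 lower in *slscz*. Over all genes the calls rose from 1431 to 1928 in *slexo1*, with 1282 shared, which is 89.6% of the first and 66.5% of the second, and from 2463 to 2913 in *slscz*, with 2106 shared, 85.5% and 72.3%. Of the genes gained, 79 of 646 in *slexo1* and 97 of 807 in *slscz* were among the 573, and of those lost 8 of 149 and 23 of 357. The 573 were 3.55% of the genes tested in the mutant libraries. Leaving out the replicate 4 values that chose them moves these counts by construction.

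**Figure D5:**
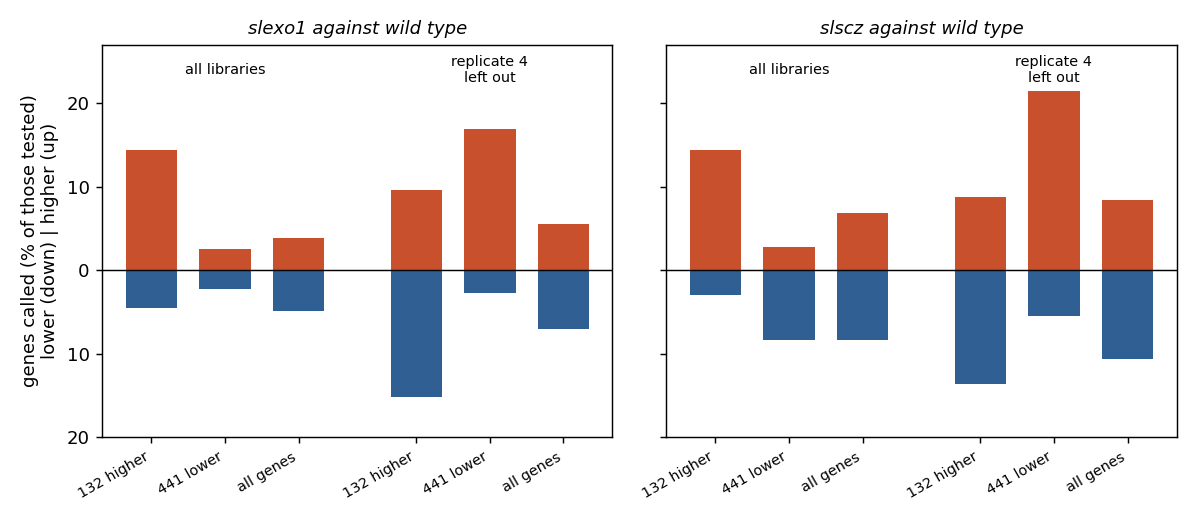
Percentage of tested genes called higher (bars upward) or lower (bars downward) than wild type in *slexo1* (left) and *slscz* (right), for the 132 higher genes, the 441 lower genes and all genes, with all libraries and with the replicate 4 libraries of the mutants left out. With all libraries 14.4% of the 132 higher genes are called higher in each mutant, a share that the choice raises, and without replicate 4 the bars of the lower genes rise to 16.9% and 21.5%.

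The *slexo1* calls fell to 943, 738 and 895 without the wild-type columns numbered 2, 3 and 4, and the *slscz* calls to 1438 without column 3. With library size as the sole scaling the *slexo1* calls split into 1231 higher and 460 lower, where the TMM scaling gave 630 and 801, and the median of all genes moved from 0.03 to 0.15 on the log2 scale.

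In *slscz* against *slexo1*, which is balanced over the replicate numbers, 23.3% of the tested genes were called, 10.7% higher and 12.5% lower in *slscz*. Line was not a term of this fit, and libraries of the same line counted as separate replicates. Its p-values therefore do not measure the spread between lines, and line and genotype are not separated. Of the 573 genes 99 (17.3%) were called, 31 higher and 68 lower in *slscz*. The 68 included 63 of the 441 lower genes (14.3%). The spread with the replicate number, for which the genes were chosen, enters the error of this fit, so a share below that of all genes is not read as a difference. Solyc08g080660 was 1 of them, with a log2 difference of -2.01 (SE 0.46, limma voom adjusted p = 0.00252). With library size as the sole scaling the calls over all genes split into 1268 higher and 2613 lower, where TMM gave 1732 and 2027. Without the replicate 4 libraries 156 of the 563 chosen genes still tested (27.7%) were called, near the 26.8% of all genes tested.

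Of the genes that the study names with an identifier, none of the 7 endodermal regulators tested and none of the 15 transcription factors of its hairy root screen was among the 573 or was called. Over all tested genes 3.55% were chosen and 4.74% were called, so none in lists this short is not read as a result about them. In the first list the differences of replicate 4 ran from -0.37 for *SlCASP1* (SE 0.14) to 0.40 for *SlSHR* (SE 0.22, Solyc02g092370, a GRAS transcription factor), in the second from -0.97 for *SlATHB-5* (SE 0.44, Solyc01g096320) to 0.56 for *SlBHLH071* (SE 0.30, Solyc11g010340), and the 2 edited genes differed by -0.08 (SE 0.29, *SlEXO1*) and -0.06 (SE 0.22, *SlSCZ*). *SlCASP3* (Solyc09g010200) encodes a protein related to that of *SlCASP1*, but in the paper its reporter, unlike that of *SlCASP1*, did not localize to the strip. Its transcript stood at 51.7, 47.4, 32.7 and 29.7 CPM in replicate 4 of *slscz-hr5*, *slscz-hr12*, *slexo1-hr6* and *slexo1-hr7* and at 24.2 to 82.6 CPM in the 8 others. Its difference of -0.37 (SE 0.11) was below 1.3-fold.

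The chosen genes are given by identifier, since 0 of the 34688 identifiers of the table were found in the table of gene names used here.

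In each library taken relative to the mean of its line, the first principal component over all 16153 genes held 27.6% of the variance and placed replicate 4 of *slscz-hr5*, *slscz-hr12*, *slexo1-hr6* and *slexo1-hr7* at 33.2, 37.5, 9.75 and 15.3, with all 8 other libraries below 0, the lowest being replicate 2 of *slscz-hr5* at -29.3. These are the values that also chose the genes. Chosen genes were found on all 12 chromosomes, from 4 to 15 higher and 28 to 61 lower genes on each, where 1016 to 2107 genes were tested. Chromosome 11 held 13 higher and 41 lower genes of 1068 tested, and chromosome 2 held 7 and 37 of 1690. Whether these shares differ was not tested. Markers of tissue other than root were not tested, and what set the replicate 4 libraries apart was not tested.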

How the data were processed

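The authors trimmed single-end 3′ reads with Trimmomatic and pseudo-aligned them to the ITAG4.1 cDNA sequences with kallisto (0.46.2 per the labels, while the paper names an earlier version), which gave estimated counts. The deposited table holds these values, not normalized, for 34688 genes. A read that fits several genes is divided between them, so near-identical copies share counts. Mutant columns were matched to samples by line and replicate number, and the 3 wild-type columns as a group.

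Counts were rounded to whole numbers. Genes were kept by filterByExpr of edgeR 4.0.16 (minimum count 10, minimum total 15), by line in the 12 mutant libraries (16153 genes) and by genotype in all 15, scaled by TMM, and fitted with voom, lmFit, contrasts.fit and eBayes of limma 3.58.1 in R 4.3.3, with Benjamini-Hochberg adjustment over all genes. A call needed an adjusted p of at most 0.05 and a linear change of at least 1.3-fold. Sides within a line were read from log2 CPM with a prior count of 2. Library totals were 2726538 to 8942819 counts. The reads have no molecular identifiers, so a floor of 3 counts allows for counting error alone. Samples of a line are said to be biological replicates, but no source says whether they are separate cultures, so p-values measure the spread between these libraries.

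Named genes were the 12 largest rises and 12 largest falls among chosen genes with at least 10 counts in every library of the higher set, and genes the paper names in its text or supplements. The members, lists and rules were chosen with earlier results of these data known. Keyword lists and promoter motifs could not be applied, because 0 identifiers matched the reference table, and genes shown in pictures alone were not used. The procedure was tested on simulated counts. Results were refitted with DESeq2 1.42.0, with quasi-likelihood tests of edgeR, with other scalings, filters, a 2-fold threshold, quality weights, thinned counts, a replicate block, and fits without single libraries, lines or replicate 4.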

Additional observations from a re-analysis of the deposited data

Results flagged for a closer look

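In 1 of 60 sets of values examined for a sample far from the rest, a library stood apart, and chance alone gives about 1 in 20. Replicate 2 of *slscz-hr5* had 92.7 CPM of Solyc01g008090, where the next highest of the 8 libraries numbered 2 or 3 had 66.4 CPM. It is also the library with the fewest counts, 2726538, and the part of depth in this value was not tested.

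The replicate 4 difference itself differed between *slscz* and *slexo1* in 72 genes by limma voom, 6 of them among the 573. The count among the 573 is a description, because their choice used the same differences. The interaction terms (*slscz* minus *slexo1*, log2) were -1.29 for Solyc01g008090, -1.20 for Solyc01g096230, -1.12 for Solyc03g033500, -1.26 for Solyc05g012070, -0.52 for Solyc06g008260 and -1.67 for Solyc10g006920. In Solyc06g008260, the most abundant of the 6, replicates 2, 3 and 4 were at 944, 921 and 572 CPM in *slscz-hr5*, 837, 757 and 475 CPM in *slscz-hr12*, 603.7, 599.8 and 525.8 CPM in *slexo1-hr6*, and 676, 669 and 583 CPM in *slexo1-hr7*. None of the 72 was called without replicate 4 of *slscz-hr12* (0 by limma voom, with 5.91% of genes at an unadjusted p under 0.05).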

How the results depend on the processing

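Calls between the replicate sets numbered 739 with edgeR and 626 with DESeq2, and 542 to 774 under other scalings and filters. They fell to 127 at 2-fold, 425 with thinned counts and 170 against replicate 3 alone, and the genes meeting both rules to 81 at 2-fold and 328 with thinned counts. Leaving out 1 library gave 231 to 846 calls and 218 to 682 chosen genes. Leaving out 1 line gave 198 (*slscz-hr5*) and 306 (*slscz-hr12*) calls and 195 and 281 chosen genes, and more for the *slexo1* lines. Replicate 3 against 2 gave 0 calls under all 9 alternatives and without each library, with unadjusted p under 0.05 for 7.85% to 19.9% of the chosen genes and 2.16% to 5.61% of all. The interaction gave 43 genes without a filter and 0 to 111 without single libraries. *slscz* against *slexo1* gave 1232 calls at 2-fold and 3405 to 4100 without single libraries. Against wild type, leaving out single libraries gave 738 to 1602 calls in *slexo1* and 1438 to 2630 in *slscz*. The excess share of the 10 most abundant genes was 0.829 to 1.21 percentage points without single lines. With library size alone the held-out percentages were 95.6%, 94.4%, 88.2% and 87.0%. Over 684 refits of a named gene 0 reversed the direction of a called gene and 157 lost the call, and 16 more had no adjusted p in DESeq2. The choice already asked these genes for 1 direction in all 4 lines. The 684 include 26 refits each of *SlEXO1* and *SlSCZ*, which were not called and whose changes of sign were not counted. Changes of 1.3-fold in genes of few counts are at the limit of this depth.

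With the replicate number as a replicate block, *slscz* against *slexo1* gave 3960 calls where the fit without it gave 3759, with 3706 shared, and called 142 of the 573 genes (24.8%, against 24.5% of all genes) where that fit called 99 (17.3% against 23.3%). The numbers were not taken as pairs: deviations from the line mean correlated at 0.12 to 0.42 between libraries numbered 4, 0.03 to 0.18 between those numbered 2 and -0.05 to 0.10 between those numbered 3, and 9 of 12 libraries correlated best with one of their own number, a hint from the data and not the design.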
